A study of Mus musculus with 57 samples.

Results

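The nuclear genes that encode proteins of the mitochondrial ribosome were described in corticospinal neurons (CSN) and control cells of the mouse brain. A gene was a member if its mouse symbol began with Mrpl or Mrps followed by a digit, was not a pseudogene symbol ending in -ps, and reached a normalised count of 35 in at least 3 libraries. By this rule 78 of the 45337 genes of the table were members, 49 named for the large subunit (Mrpl) and 29 for the small subunit (Mrps). Of the 83 genes with such symbols 5 were left out as pseudogenes and 0 for low values. In all 57 libraries 77 members reached the threshold, and Mrpl53 reached it in 45. The study compared mice of genotype Sod1G86R, which carry a mutant Sod1 transgene that causes motor neuron disease in mice, with wild-type mice at 4 ages. The ages are plain numbers in the labels (30, 60, 90 and 105) and are read here as days. There were 16 wild-type CSN libraries, 4 at each age, and 13 Sod1G86R CSN libraries, 3 at 30 days, 4 at 60, 4 at 90 and 2 at 105. The control cells gave 14 wild-type libraries (4, 2, 4 and 4 by age) and 14 Sod1G86R libraries (3, 3, 4 and 4), and the labels say no more about what these cells are. Each library has a number in its label. Nothing in the labels states that the numbers of a group are separate mice, so p-values measure the spread between libraries.

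The mitochondrial ribosome sits in the mitochondrial matrix and translates the few messenger RNAs of the mitochondrial genome, all of which encode core subunits of the respiratory chain and ATP synthase. Its ribosomal RNAs come from the mitochondrial genome, whereas its proteins are encoded in the nucleus, made in the cytosol and imported. The small subunit binds the messenger RNA and decodes it, and the large subunit joins the amino acids and releases the chain at the inner membrane. Many of its proteins have counterparts in bacterial ribosomes and others are found only in mitochondria. Corticospinal neurons are the projection neurons of the motor cortex that degenerate in amyotrophic lateral sclerosis.

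Libraries held 22182627 to 64231716 recovered reads. Sod1, the gene that the transgene adds, ranged from 80216 to 172179 normalised reads in Sod1G86R CSN and from 1806 to 4562 in wild-type CSN, and it separated the genotypes fully in control cells too. Of 10 markers of CSN 9 were higher in CSN than in control cells in both genotypes, and all 8 markers each of microglia and of endothelial and mural cells were lower. Reads of the mitochondrial genome took 9.41% ± 2.92 (SD, n = 16) of the total in wild-type CSN, 5.95% ± 2.31 (SD, n = 13) in Sod1G86R CSN, 1.44% ± 0.56 (SD, n = 14) in wild-type control cells and 1.90% ± 0.74 (SD, n = 14) in Sod1G86R control cells.

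In wild-type CSN the members spanned a wide range of levels once counts were divided by exon length. The median member stood at 715 normalised reads per kb. The highest large-subunit members per kb were Mrpl41 (6649 ± 1181 reads per kb, SD, n = 16), Mrpl20 (3002 ± 775) and Mrpl27 (2821 ± 880). The lowest were Mrpl17 (221 ± 51.7), Mrpl23 (118 ± 66.2) and Mrpl53 (83.5 ± 30.8). Among small-subunit members Mrps12, which lies at the decoding site, was highest at 3399 ± 1004 reads per kb, followed by Mrps21 (3080 ± 1431) and Mrps33 (2656 ± 1085). Mrps30 (216 ± 47.6), Mrps35 (205 ± 36.7) and Mrps18b (178 ± 48.2) were lowest. Neighbouring genes within each of these groups of 3 differed by less than the larger of their SDs, except Mrpl41 against Mrpl20 and Mrpl17 against Mrpl23. The subunits overlapped widely, with medians of 718 reads per kb over the large-subunit and 623 over the small-subunit members. A level per kb depends on the annotated exon length, and reads of the pseudogenes Mrpl23-ps1 (median 357 normalised reads over all libraries) and Mrpl48-ps (median 164) may be shared with their parent genes.

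The level of 1 subunit relative to the other varied little between CSN libraries. In each library the mean log2 level of the small-subunit members was subtracted from that of the large-subunit members. The difference was -0.01 ± 0.04 (SD, n = 16) in wild-type CSN and -0.01 ± 0.03 (SD, n = 13) in Sod1G86R CSN. It was 0.06 ± 0.05 in wild-type and 0.04 ± 0.10 in Sod1G86R control cells (SD, n = 14 each). The CSN values ran from -0.11 to 0.04 and those of control cells from -0.21 to 0.15, so the cell types overlapped. Over the 29 CSN libraries, deviations from group means correlated by 0.59 on average between pairs of members, by 0.62 within the large subunit, 0.54 within the small subunit and 0.59 across subunits. In the 28 control-cell libraries the mean over member pairs was 0.36. Pairs of all tested genes averaged 0.00 in both cell types, and pairs of cytosolic ribosomal protein genes 0.72 in CSN. These correlations describe libraries that share depth and cell content, so they are given without a test. Mrpl53 stood apart, with a mean correlation of -0.14 with the other members in CSN, and the next lowest were Mrps26 (0.25) and Mrps5 (0.27).

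**Figure D1:**
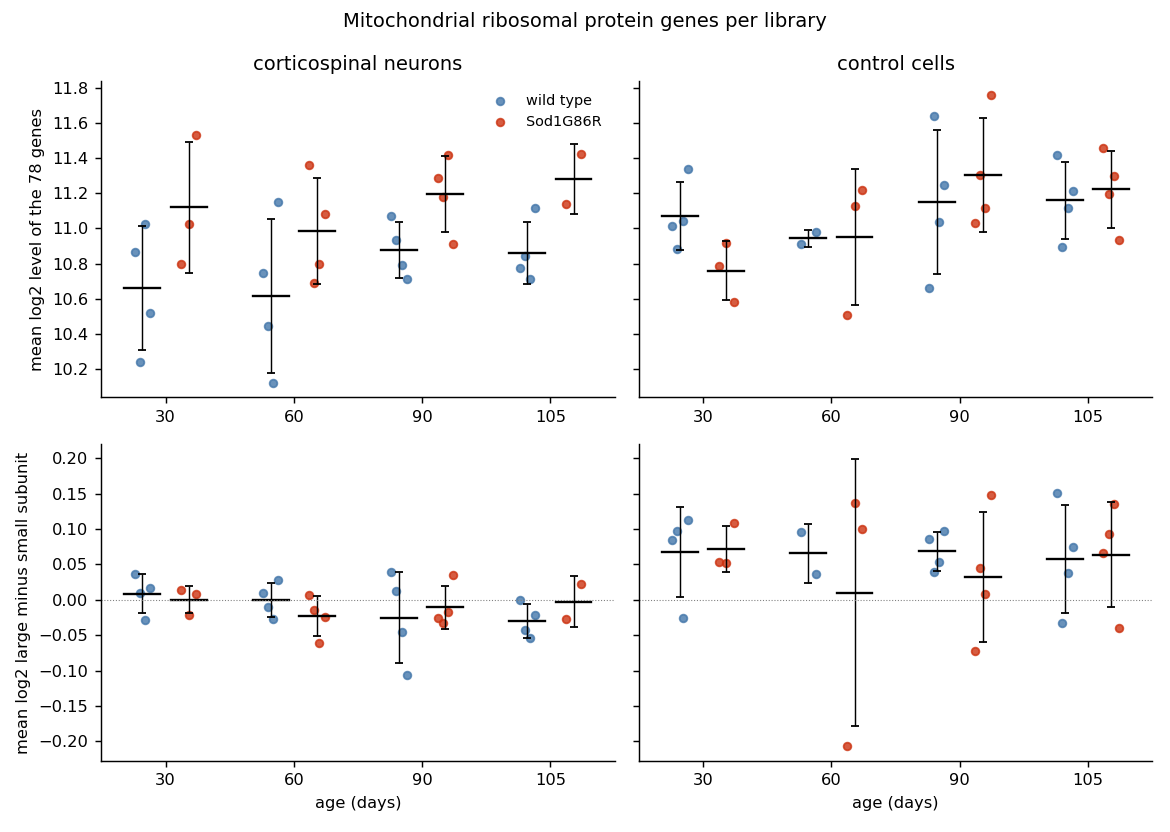
Mean log2 level of the 78 genes (top) and mean log2 level of the large minus the small subunit (bottom) in each library, by age in days, for CSN (left) and control cells (right). Points are libraries, and black lines and bars are group means and SD. In CSN the Sod1G86R mean lies above the wild-type mean at each age, while the large-minus-small values stay between -0.11 and 0.04.

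In CSN the mitochondrial ribosomal protein genes were higher in Sod1G86R than in wild-type mice. Averaged over the 4 ages, 44 of 78 members rose and 0 fell, where 12.8% of the 19093 genes tested rose and 6.31% fell. The test was limma with Benjamini-Hochberg adjustment over all tested genes at an adjusted p under 0.05. The median log2 difference was 0.40 over the members and -0.05 over all tested genes, and 75 of 78 members lay above 0. The rises were moderate, from 1.22-fold (Mrpl3) to 1.89-fold (Mrps18b). The summed member count ran from 98382 to 208645 with a median of 159526 in wild-type CSN, and from 146746 to 272463 with a median of 204409 in Sod1G86R CSN. Of the 13 Sod1G86R libraries 12 lay above the wild-type median and 6 above every wild-type library. The 2 genotypes overlapped in every member.

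Members of both subunits rose. Of the large-subunit members 28 of 49 rose, with a median log2 difference of 0.41, and of the small-subunit members 16 of 29 rose, with a median of 0.33. Known structures place Mrps30 and Mrps18a in the large subunit, and Mrps36 is now regarded as a subunit of the 2-oxoglutarate dehydrogenase complex. Grouped that way 30 of 51 large-subunit and 14 of 26 small-subunit members rose. By a grouping made after the values were seen, which leaves out Mrps36, members with a bacterial counterpart rose in 19 of 30 cases in the large and 9 of 18 in the small subunit. Members found only in mitochondria rose in 9 of 19 and 7 of 10. Each of these shares lies above the background of 12.8%, and no test compared them with each other.

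**Figure D2:**
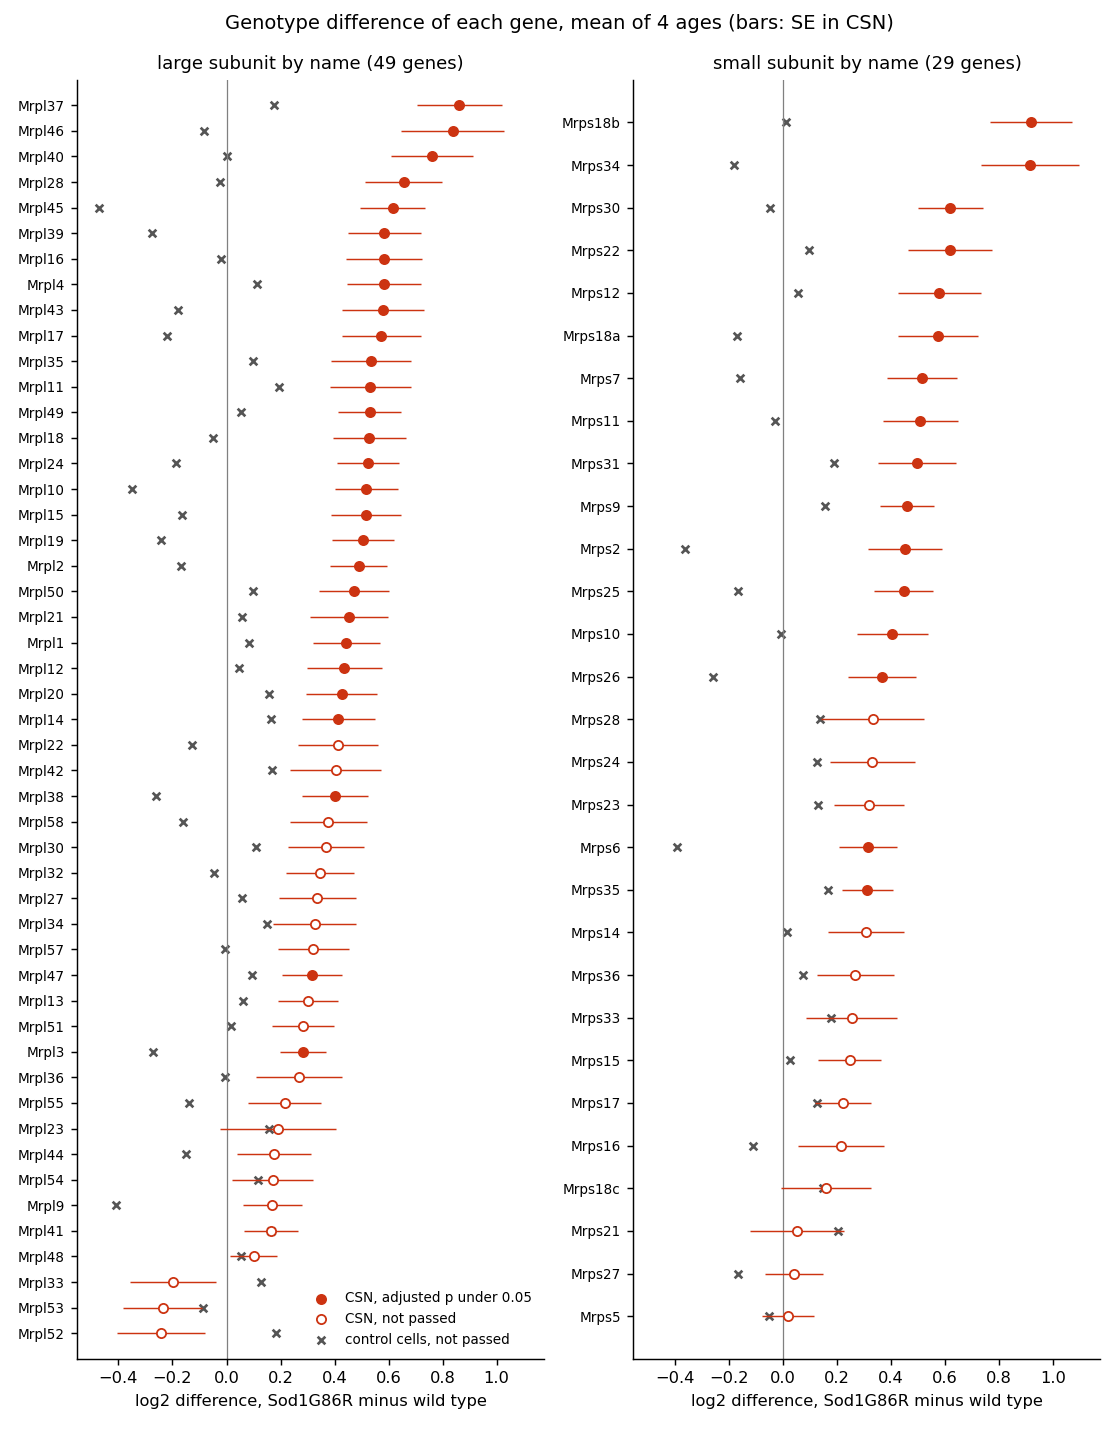
Log2 difference between Sod1G86R and wild type, averaged over 4 ages, for each large-subunit (left) and small-subunit (right) gene. Red points are CSN with SE bars, filled where the adjusted p was under 0.05, and grey crosses are control cells. In CSN 75 of 78 points lie above 0 and 44 are filled, while the crosses lie on both sides of 0.

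Within the large subunit the strongest case was Mrpl37, a protein specific to mitochondria. Its normalised count ran from 1405 to 4361 with a median of 2536 in wild-type CSN and from 1870 to 7675 with a median of 4828 in Sod1G86R CSN. The log2 difference was 0.86 (SE 0.16, limma adjusted p = 0.000522). The groups overlapped, and 11 of 13 Sod1G86R libraries lay above the wild-type mean. Mrpl45 docks the ribosome to the inner membrane close to where the new chain emerges. It ran from 1653 to 4232 (median 3107) in wild type and from 3131 to 6028 (median 4690) in Sod1G86R. All 13 Sod1G86R libraries were above the wild-type mean, and the log2 difference was 0.61 (SE 0.12, limma adjusted p = 0.000997). Mrpl40, a protein of the central protuberance where the subunits meet, ran from 568 to 1657 (median 1318) in wild type and from 1508 to 3107 (median 2108) in Sod1G86R. Again all 13 lay above the wild-type mean, at a log2 difference of 0.76 (SE 0.15, limma adjusted p = 0.00113). Mrpl28 and Mrpl2, both with bacterial counterparts, rose by log2 differences of 0.66 and 0.49 (limma adjusted p = 0.00205 and 0.00223). Mrpl2 is a core protein of the peptidyl transferase region.

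Other large-subunit members were chosen for their place on the ribosome after their values were seen, so they are given as single values and stand for no site. Mrpl10, Mrpl11 and Mrpl12, proteins of the stalk that recruits translation factors or of its base, rose by log2 differences of 0.52, 0.53 and 0.44 (limma adjusted p = 0.00295, 0.0135 and 0.0279). Mrpl46 of the central protuberance rose by 0.84 (limma adjusted p = 0.00356), whereas Mrpl58, which can release stalled chains, had 0.38 and Mrpl48 had 0.10, and neither passed (limma adjusted p = 0.0615 and 0.415). The values below 0 all belonged to the large subunit and none passed, at -0.24 for Mrpl52, -0.24 for Mrpl53 and -0.20 for Mrpl33.

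Among the genes named for the small subunit Mrps18b led. Its count ran from 219 to 604 with a median of 367 in wild-type CSN and from 345 to 1210 with a median of 773 in Sod1G86R CSN. Of the 13 Sod1G86R libraries 9 were above every wild-type library, and the log2 difference was 0.92 (SE 0.15, limma adjusted p = 0.000322). It is 1 of 3 paralogues of a single bacterial protein. Mrps18a had a log2 difference of 0.57 (limma adjusted p = 0.00736), whereas Mrps18c had 0.16 (adjusted p = 0.5), with 7 of 13 Sod1G86R libraries above the wild-type mean. The difference between the paralogues was not tested. Mrps30, which structures place in the large subunit, ran from 694 to 1872 (median 1397) in wild type and from 1221 to 3226 (median 2363) in Sod1G86R, a log2 difference of 0.62 (SE 0.12, limma adjusted p = 0.000876). Mrps34, which stabilises the small ribosomal RNA, ran from 452 to 1414 (median 874) and from 646 to 2698 (median 1735). Its log2 difference was 0.92 (SE 0.18, limma adjusted p = 0.00108). Mrps9, which has a bacterial counterpart, and Mrps25 rose by log2 differences of 0.46 and 0.45 (limma adjusted p = 0.00191 and 0.00511). Mrps36 had a log2 difference of 0.27 and did not pass (adjusted p = 0.176).

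Because the library kit does not mark strand, reads of overlapping genes cannot be told apart. Exons of Mapk8ip3 and Nme3 cover 77.8% of the exon bases of Mrps34, and those of Nr2c2 cover 69.8% of Mrps25. Gm16279 on the other strand covers 30.5% of Mrps18b, and Gm42688 and Ccdc142os cover 88.0% of Mrpl53. No other gene's exons overlap Mrpl37, Mrpl45, Mrpl40, Mrpl28, Mrpl2 or Mrps9.

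**Figure D3:**
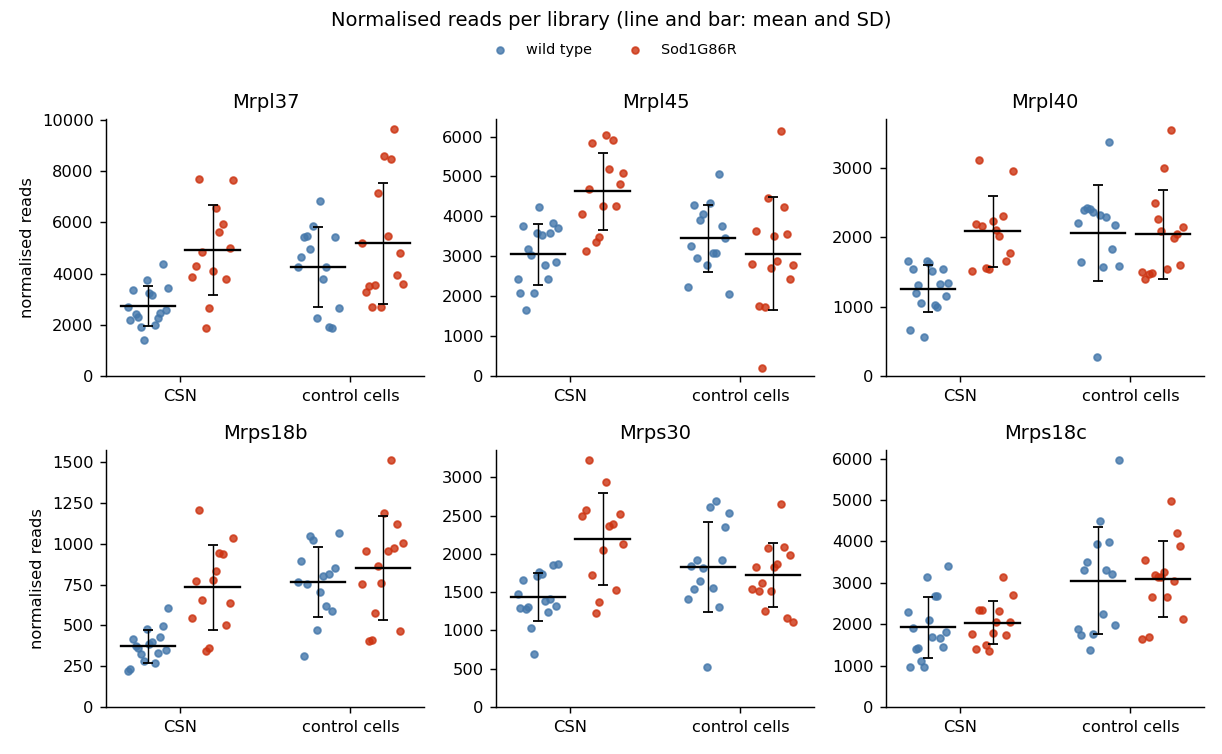
Normalised reads of 6 members in each library, by cell type and genotype, with group mean and SD. For Mrpl45 and Mrpl40 all 13 Sod1G86R CSN points lie above the wild-type CSN mean, 7 do so for Mrps18c, and in control cells the genotypes overlap.

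Measures of the libraries moved with the genotype as well. The mitochondrial read share was below the wild-type median in 12 of 13 Sod1G86R CSN libraries and below every wild-type library in 7. The number of genes detected was 16306 ± 470 (SD, n = 16) in wild-type and 15592 ± 518 (SD, n = 13) in Sod1G86R CSN. With the log2 mitochondrial share as a covariate 0 of 78 members passed and the median member difference was 0.12. With the number of genes detected as a covariate 0 passed and the median was 0.06. Under these covariates Mrps18b had log2 differences of 0.58 (limma adjusted p = 0.226) and 0.61 (limma adjusted p = 0.308). Without the 90-day libraries 20 members passed, at a median of 0.42, and without Sod1G86R CSN library 13 at 105 days 28 passed. How many of all tested genes passed under these settings is not given, so the counts are not set against a background.

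**Figure D4:**
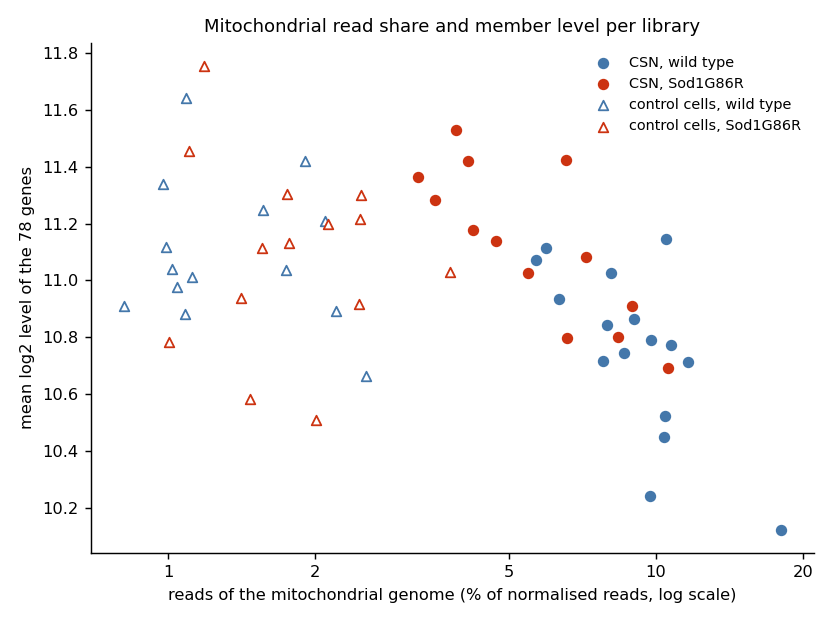
Share of normalised reads from the mitochondrial genome (percent, log scale) against the mean log2 level of the 78 genes, 1 point per library. Sod1G86R CSN libraries (filled red) lie at lower shares than most wild-type CSN libraries (filled blue), and the control cells (open triangles) lie at shares of at most 3.78%.

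Markers of other cell types were summed in the CSN libraries. The 8 oligodendrocyte markers summed to 4191 to 299008 normalised reads in wild-type and 7720 to 99084 in Sod1G86R CSN, and 0 of 8 passed with a median log2 difference of -0.88. The 8 microglial markers summed to 2439 to 11678 and 1151 to 11641, and 2 of 8 (Aif1 and Cx3cr1) fell. For the 8 astrocyte markers the sums were 13265 to 110778 and 15729 to 85988, with 0 passing, and for the 8 endothelial and mural markers 352 to 3568 and 278 to 3609, with 0 passing. All defining markers of these 4 lists were above 0 in the CSN libraries, except that Cldn5 of endothelial cells was at 0 in 1 of 29. Of 5 tested markers of GABAergic neurons 0 passed, and Dlx2 was at 0 in 12 of 29. The part of these cells in the member result was not tested. In these pooled cells, fewer cells of a type and less RNA per cell cannot be told apart.

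At single ages few members passed. The median member difference in CSN was 0.43 at 30 days, 0.37 at 60, 0.31 at 90 and 0.45 at 105. At 90 days 3 of 78 rose and 0 fell, where 3.48% of all tested genes rose, so the share of members lay near the background. They were Mrps18b, Mrpl37 and Mrpl3. Mrps18b stood at 388, 399, 270 and 331 normalised reads in the wild-type libraries of 90 days and at 831, 944, 936 and 503 in the Sod1G86R libraries, so the groups did not overlap. Its log2 difference was 1.11 (limma adjusted p = 0.0269). Mrpl37 stood at 3236, 3183, 1987 and 2256 in wild type and 6562, 5608, 5951 and 3800 in Sod1G86R, also without overlap, with a log2 difference of 1.03 (limma adjusted p = 0.0392). Mrpl3, which has a bacterial counterpart, stood at 1722, 1887, 1523 and 1476 and at 2532, 2264, 2660 and 2129, again without overlap, with a log2 difference of 0.53 (limma adjusted p = 0.0487). Leaving out any 1 of wild-type libraries 7 and 9 or Sod1G86R libraries 3, 5 and 6 of 90 days took the count to 0, and leaving out Sod1G86R library 8 raised it to 12. The call of Mrpl3 was the least stable, since it was lost without any 1 of 20 of the 29 CSN libraries (limma adjusted p up to 0.165), against 5 each for Mrps18b and Mrpl37.

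At 30, 60 and 105 days 0 members passed, where 0.0157%, 0.0314% and 0.021% of all tested genes did. In simulated data the 105-day test recovered 25% of 2-fold changes, against 93% for the mean of ages. A count of 0 there does not show that the members were unchanged. At an unadjusted p under 0.05 there were 31, 19 and 10 of 78 members, beside 2569, 1501 and 1531 of all 19093 genes. At 30 days the smallest p-values were those of Mrps18b (log2 difference 1.32, limma adjusted p = 0.128), Mrps30 (0.94, 0.145) and Mrpl2 (0.76, 0.161). At 60 days Mrpl40 had 0.77 and Mrpl28 0.70, and at 105 days, with 2 Sod1G86R libraries, Mrpl24 had 0.76 and Mrpl37 0.97. The change of the genotype difference between early and late ages gave 0 passing members of 78 by limma, with 1 at an unadjusted p under 0.05, beside 463 of all 19093 genes, of which 0 passed. That single member was Mrps5, a small-subunit protein with a bacterial counterpart, at -0.44 (adjusted p = 1).

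Age itself gave no passing member in CSN. Late ages (90 and 105 days) against early ages (30 and 60 days) had a median member difference of 0.23 in wild-type CSN, and of 0.19 in Sod1G86R CSN. At an unadjusted p under 0.05 there were 14 of 78 members in wild type, beside 1569 of 19093 genes, and 6 in Sod1G86R, beside 1397 of 19093, a share near that of all genes. In both, 0 of all tested genes passed by limma. The smallest p in wild type was that of Mrps10, at a log2 difference of 0.52 (limma adjusted p = 0.506), and in Sod1G86R that of Mrpl3, at 0.34 (limma adjusted p = 0.661).

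In control cells no member passed between genotypes. The count was 0 of 78 by limma, where 0.0716% of 20944 genes passed, and 0 by edgeR and by DESeq2, with 3 members at an unadjusted p under 0.05 by limma, beside 2456 of the 20944 genes, so the share of members lay below that of all genes. The median member difference was 0.01, with 41 members above 0. The summed member count was 209472 ± 45063 (SD, n = 14) in wild type and 210263 ± 51356 (SD, n = 14) in Sod1G86R. Mrps18b ran from 313 to 1063 (median 784) in wild-type and from 401 to 1513 (median 909) in Sod1G86R control cells, a log2 difference of 0.01 (SE 0.20, limma adjusted p = 0.987). The smallest p-values belonged to Mrps6 (-0.39, limma adjusted p = 0.371), Mrps2 (-0.36, 0.409) and Mrpl9 (-0.41, 0.417). Single ages of control cells are not described here, and 1.4% of the 20944 genes passed at 60 days by limma.

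The genotype difference itself was compared between the cell types. It was higher in CSN than in control cells for 14 of 78 members and lower for 0, where 3.84% of the 22032 genes tested were higher. These were 8 of 49 large-subunit and 6 of 29 small-subunit members, and the median over all members was 0.38. The named cases were Mrpl24 (difference of log2 differences 0.71, limma adjusted p = 0.0232), Mrpl46 (0.92), Mrpl10 (0.87), Mrpl45 (1.09) and Mrpl17 (0.79) of the large subunit. On the small subunit they were Mrps34 (1.10, limma adjusted p = 0.0235), Mrps2 (0.81), Mrps6 (0.71), Mrps18b (0.91) and Mrps25 (0.62). For Mrpl45, 1 Sod1G86R control library stood at 208 reads where the median was 2841. The count was not stable. It was 0 without Sod1G86R CSN library 13 at 105 days, 1 without Sod1G86R CSN library 6 at 30 days, and 4 and 5 without wild-type control library 1 and Sod1G86R control library 3 at 60 days. It was 7 without Sod1G86R CSN library 1 at 60 days or library 9 at 105 days, 8 without wild-type CSN library 3 at 60 days, 9 without Sod1G86R CSN library 6 at 90 days or Sod1G86R control library 3 at 30 days, and 22 without wild-type control library 3 at 90 days. With either covariate, and after quantile normalisation, it was 0.

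CSN and control cells were then compared within each genotype. In wild-type mice 39 of 78 members were lower and 3 higher in CSN, where 29.5% of all 22032 tested genes were lower and 26.8% higher. The median member difference was -0.35. In Sod1G86R mice 9 were lower and 21 higher, where 30.6% and 24.9% of genes were, so both shares lay near or below the background there, and the median was 0.06. After quantile normalisation the split was 7 higher and 30 lower in wild type and 18 higher and 12 lower in Sod1G86R. The shares of all tested genes after quantile normalisation are not given, so this split is not set against a background. The passing members of both genotypes shared 14 genes, which is 14 of 42 and 14 of 30. This count disregards direction, and 56.3% and 55.5% of all tested genes passed in wild type and Sod1G86R. For 73 of 78 members the CSN level relative to control cells was higher in Sod1G86R than in wild type. This is the sign of the difference between cell types given above, so it is no separate result. The share of all tested genes with that sign is not given, and their median for that difference was -0.03. Members varied together across libraries, so they are not independent observations.

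Mrps5 had the smallest p between the cell types in both genotypes. It ran from 1005 to 1962 (median 1590) in wild-type CSN and from 441 to 1284 (median 660) in wild-type control cells. In Sod1G86R mice it ran from 993 to 2445 (median 1516) in CSN and from 288 to 1230 (median 727) in control cells. The log2 differences were 1.10 (limma adjusted p = 8.84e-09) and 1.17 (limma adjusted p = 9.53e-09). All 16 wild-type and all 13 Sod1G86R CSN libraries lay above the mean of the control cells of their genotype. It did not differ between genotypes in CSN beyond its error, at a log2 difference of 0.02 (SE 0.10). Mrpl41 (0.46 in both genotypes) and Mrps35 (0.34 and 0.49) were the other members higher in wild-type CSN. Without wild-type control library 13 at 105 days the wild-type call of Mrps35 was lost (limma adjusted p = 0.0505).

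The members lowest in CSN included Mrpl50, a large-subunit protein specific to mitochondria. It ran from 652 to 1284 (median 883) in wild-type CSN and from 805 to 3512 (median 2345) in control cells, a log2 difference of -1.29 (limma adjusted p = 1.29e-07). In Sod1G86R mice the difference was -0.91 (limma adjusted p = 0.000165), and 0 of 16 and 0 of 13 CSN libraries lay above the control-cell mean of their genotype. Mrpl48, of the central protuberance, had -0.52 and -0.47, again with 0 CSN libraries above the control-cell means. Mrpl33 had -0.65 and -0.98. Mrpl46 and Mrps18b were lower in wild-type CSN (-1.03 and -1.02), and Mrps18b did not pass in Sod1G86R (-0.11, limma adjusted p = 0.617). The mitochondrial read share did not overlap between the cell types in wild type, and with it as a covariate 21 members were higher and 0 lower in wild type and 44 higher and 2 lower in Sod1G86R, so cell type and that share cannot be told apart here. With the number of genes detected as a covariate 4 were higher and 43 lower in wild type, and 2 higher and 19 lower in Sod1G86R. The shares of all tested genes under these covariates are not given, so the counts are not read as particular to the members.

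**Figure D5:**
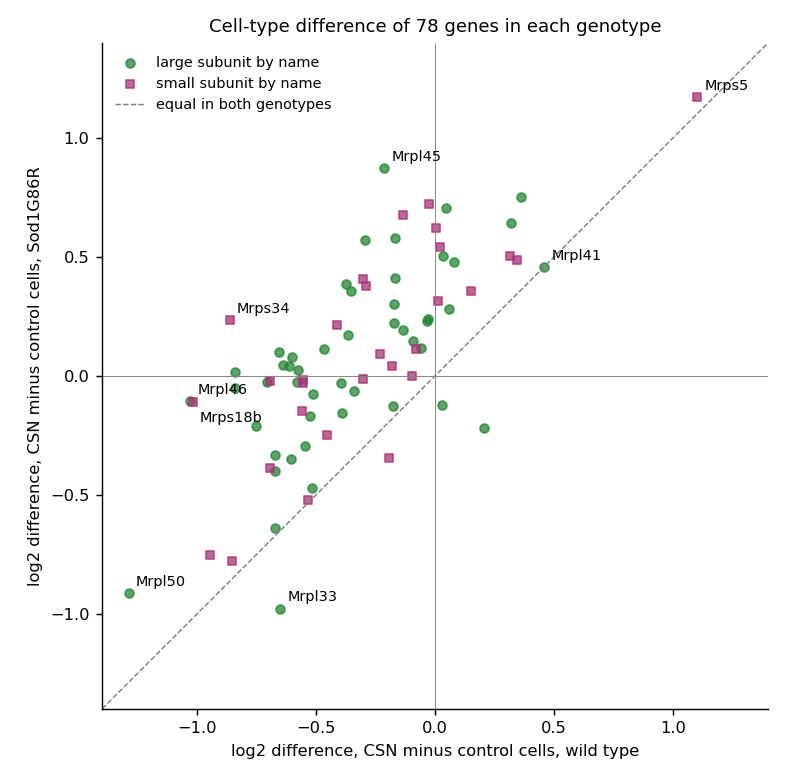
Log2 difference between CSN and control cells for each of the 78 genes in wild-type (horizontal) and Sod1G86R mice (vertical), with the line of equal differences. Circles are large-subunit and squares small-subunit genes. Of the 78 points 73 lie above the line, Mrps5 is at the upper right and Mrpl50 at the lower left.

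Other genes of mitochondrial gene expression were examined in the same CSN genotype comparison, in which 12.8% of all tested genes rose and 6.31% fell. Of 5 mitoribosomal subunits with symbols of another kind 3 rose: Dap3 (log2 difference 0.65, limma adjusted p = 0.000506), Ptcd3 (0.28) and Aurkaip1 (0.47). Dap3 ran from 2376 to 4466 (median 3120) in wild type and from 3527 to 6534 (median 5569) in Sod1G86R, with 11 of 13 libraries above every wild-type library. Of 26 genes for ribosome assembly and RNA modification 7 rose, led by the GTPase Mtg1 (0.74, limma adjusted p = 0.000323), Fastkd2 (0.59) and the methyltransferase Mrm3 (0.46). Of 13 translation factors and related genes 6 rose, among them the insertase Oxa1l (0.50), the recycling factor Mrrf (0.59) and the elongation factor Tsfm (0.49). Of 22 genes for mitochondrial aminoacyl-tRNA synthesis 9 rose, with Gars at 0.63, Yars2 at 0.73 and Gatc at 0.59. Gars also serves the cytosol. Of 22 genes for mitochondrial transcription and RNA maintenance 4 rose, led by Mterf2 (0.58), Hsd17b10 (0.53) and Grsf1 (0.45), a share near the background. None of these 5 lists had a falling member.

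The RNAs made from the mitochondrial genome moved the other way. Of 12 tested mitochondrial messenger RNAs 9 fell and 0 rose, with a median log2 difference of -0.58, where 6.31% of all tested genes fell. The most significant were mt-Atp6 (-0.62, limma adjusted p = 0.00817), mt-Co2 (-0.83, limma adjusted p = 0.00959) and mt-Co1 (-0.54, limma adjusted p = 0.0121). mt-Co1, a core subunit of cytochrome oxidase, ran from 162974 to 360445 (median 275673) in wild-type CSN and from 116628 to 287029 (median 178481) in Sod1G86R CSN, with overlap. The ribosomal RNAs that the members bind had log2 differences of -0.76 for mt-Rnr1 (limma adjusted p = 0.0548) and -0.77 for mt-Rnr2 (limma adjusted p = 0.0526) and did not pass. All reads of the mitochondrial genome, ribosomal RNAs included, were also divided by member reads. The ratio was 21.4 ± 11.7 (SD, n = 16) in wild-type and 11.3 ± 5.92 (SD, n = 13) in Sod1G86R CSN. Of 78 nuclear genes of the respiratory complexes 33 rose and 0 fell, at a median of 0.38, led by Uqcrc1 (1.06), Ndufv1 (0.99) and Ndufa9 (1.03). Of 86 cytosolic ribosomal protein genes 4 rose (Rpl7l1, Rpl4, Rplp0 and Rps3) and 1 fell, at a median of -0.04, fewer than the 12.8% and 6.31% of all tested genes. In control cells, averaged over the 4 ages, none of these lists had a passing member.

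Many of the 78 genes lie close to a neighbour that is read from the other strand. A protein-coding gene began head to head within 1000 bases of 18 members (23.1%), and of 6.83% of the 21383 protein-coding genes of the table. The pairs include Mrps12 with Sars2, which encodes the mitochondrial seryl-tRNA synthetase, 172 bases apart. Mrps18b begins 45 bases from Ppp1r10, Mrpl37 120 bases from Cyb5rl and Mrpl40 175 bases from Hira.

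RefSeq promoter windows, from 250 bases before to 50 after a start on GRCm38.p6, matched 69 of 78 members and gave 75 windows. Not matched were Mrpl13, Mrpl15, Mrpl19, Mrpl38, Mrpl4, Mrpl54, Mrps28, Mrps34 and Mrps35. Both strands were searched for exact motifs. The ETS-type motif CCGGAAGT occurred in 12 of 75 member windows and 5.15% of the windows of protein-coding genes. The YY1 motif AAGATGGCG occurred in 10.7% and 1.83%, an exact match to the NRF1 consensus in 3 of 75 windows and 1.33%, and the E-box CACGTG in 9.33% and 7.84%. CCAAT, or ATTGG on the other strand, occurred in 40.0% and 38.2%. TATAAA, searched on the gene's strand in the 50 bases before the start, occurred in 0 member windows and 3.17% of the others. The median number of CpG was 21 per member window and 13 per window of protein-coding genes. None of these motifs contains another, and a match is a description of the letters.

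The stretches printed here end at or just before the RefSeq start and lie outside the exons of coding genes. They come from a few of the 44 members that rose in Sod1G86R CSN. They were picked after values were seen, so these stretches show no share of motifs among the members. They run 5′ to 3′ on the gene's strand, and capitals mark CCAAT on either strand or the ETS-type motif. They are chr4:107066869-107066986 (minus strand) for Mrpl37, chr11:97315596-97315715 (plus) for Mrpl45, chr17:46646101-46646220 (plus) for Mrpl2, chr1:42851113-42851232 (plus) for Mrps9, chr9:98601680-98601799 (minus) for Mrps22 and chr7:28741822-28741991 (minus) for Mrps12, the last being nearly the whole gap to Sars2.
Mrpl37: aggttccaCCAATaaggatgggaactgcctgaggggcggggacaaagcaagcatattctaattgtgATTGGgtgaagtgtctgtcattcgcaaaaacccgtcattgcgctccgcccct
Mrpl45: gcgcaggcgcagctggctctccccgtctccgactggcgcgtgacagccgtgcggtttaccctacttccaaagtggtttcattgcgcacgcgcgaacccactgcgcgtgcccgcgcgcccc
Mrpl2: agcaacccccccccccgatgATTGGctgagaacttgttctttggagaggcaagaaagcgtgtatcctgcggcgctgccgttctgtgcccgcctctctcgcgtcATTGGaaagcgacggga
Mrps9: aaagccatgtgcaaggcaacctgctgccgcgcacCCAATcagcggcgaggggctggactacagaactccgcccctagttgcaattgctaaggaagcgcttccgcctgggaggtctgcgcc
Mrps22: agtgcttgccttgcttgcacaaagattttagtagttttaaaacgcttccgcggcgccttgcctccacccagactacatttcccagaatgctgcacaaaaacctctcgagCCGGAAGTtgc
Mrps12: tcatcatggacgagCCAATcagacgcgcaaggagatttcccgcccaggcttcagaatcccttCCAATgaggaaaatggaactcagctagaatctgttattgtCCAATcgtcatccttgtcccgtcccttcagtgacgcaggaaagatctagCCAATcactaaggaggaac
Mrps12 holds 4 copies of CCAAT in 170 bases, Mrpl37 and Mrpl2 hold 2 each, Mrps9 holds 1 and Mrps22 holds an ETS-type match 11 bases before its start. Mrpl45 holds none of the searched motifs and 17 CpG in 120 bases. Mrps12 and Mrps22 rose with log2 differences of 0.58 and 0.62 (limma adjusted p = 0.00899 and 0.00647). Members with and without a match are thus both found among those that rose.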

How the data were processed

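Bulk RNA-seq libraries were made with an unstranded full-length kit (SMART-Seq v4), without molecular identifiers, per the labels' protocols. Reads were aligned with STAR 2.7.0 to GRCm38 with Ensembl 87 annotation, per the series' design text, and the submitters' processing notes also name edgeR with no role. The deposited table holds a normalised count signal per gene and library, with a normalisation not stated in the labels or the file header. Each column was a whole-number count divided by a constant, so reads were recovered (100% of values whole within 0.001) and used for edgeR and DESeq2 as alternatives.

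Values were tested as log2(value + 34.6), a scale that understates changes of low genes, in genes reaching 34.6 in 3 libraries. limma 3.58.1 (R 4.3.3) fitted 1 mean per genotype and age, with Benjamini-Hochberg adjustment over all genes tested. The scripts were tested on simulated data. Of simulated 2-fold changes between genotypes 93% were recovered in CSN and 44% in control cells, each for the mean of ages. Alternatives used edgeR 4.0.16, DESeq2 1.42.0, other pseudocounts, filters and scalings, covariates, a replicate block and left-out libraries. Exon lengths and overlaps came from GENCODE M21. Precision covers counting error and the spread between libraries only.

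The members and lists were chosen with earlier results of these data known. Named genes were, per comparison, up to 5 passing members of each subunit with the smallest p in the commoner direction and 3 in the other (with fewer than 3 passing, the 3 smallest p per direction), the 3 highest and 3 lowest per kb in each subunit, the Mrps18 paralogues, Mrps30 and Mrps36, and up to 3 genes of each other list. Genes named for their site on the ribosome or their promoter (Mrps12 and Mrps22 among them) were chosen after their values were seen. Library numbers were checked for pairing: 25 pairs of same-numbered libraries across cell types had correlations of deviations from -0.32 to 0.28, and 7 exceeded 0.1. Of 9 same-numbered pairs across genotypes within an age in CSN, 5 exceeded 0.1, the highest at 0.48. Since not every pair did, the numbers were not taken to pair libraries, though this does not exclude pairing.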

Additional observations from a re-analysis of the deposited data

Results flagged for a closer look

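Among 93 values tested in groups of 4 libraries, 2 had 1 library far from the others, where chance flags about 1 in 20. The mitochondrial read share was 8.92% in Sod1G86R CSN library 8 at 90 days and 3.52% to 4.21% in the other libraries of that group. Mrpl28 stood at 4450 normalised reads in wild-type CSN library 3 at 90 days and at 3280 to 3466 in the others.

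The genotype difference was larger in CSN than in control cells, by limma's test of that difference, for 10 named members. They are the passing members of each subunit with the smallest p, where 3.84% of the 22032 genes tested were higher. Leaving out 1 library took the count of passing members to between 0 and 22. Each of the 10 calls was lost without at least 1 library. On the log2 scale the excess was 0.71 for Mrpl24 (adjusted p = 0.0232), 0.92 for Mrpl46 (0.0302), 0.87 for Mrpl10 (0.0306), 1.09 for Mrpl45 (0.0322) and 0.79 for Mrpl17 (0.0363). On the small subunit it was 1.10 for Mrps34 (0.0235), 0.81 for Mrps2 (0.024), 0.71 for Mrps6 (0.0273), 0.91 for Mrps18b (0.0292) and 0.62 for Mrps25 (0.0348).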

How the results depend on the processing

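The 44 members that rose in CSN became 31 with no filter or quantile normalisation, 41 with TMM, 43 with edgeR, 48 with DESeq2 and 49 with a stricter filter, but 0 with the mitochondrial share or genes detected as a covariate and 20 without the 90-day libraries. Leaving out 1 library gave 28 to 58. The 3 members of 90 days became 0 with no filter or either covariate, 1 after quantile normalisation, 6 with a stricter filter, 9 with DESeq2 and 9 with only the libraries of that age, and 0 to 12 without 1 library. DESeq2 called 4 at 30 days, and leaving out 1 library gave 0 to 1. The 14 members with a larger difference in CSN became 2 with no filter, 0 after quantile normalisation, 22 with DESeq2, 0 with either covariate and 0 to 22 without 1 library. Between cell types, 42 (wild type) and 30 (Sod1G86R) became 21 and 46 once the mitochondrial share was a covariate, 38 to 44 and 26 to 32 without 1 library. The other counts of 0 stayed 0 to 0 without 1 library. These counts are of members, and how many of all tested genes passed under each setting is not given. With the mitochondrial share in the model the wild-type cell-type difference turned to 0.26 for Mrpl50, 0.017 for Mrpl46, 0.47 for Mrpl17, 0.43 for Mrpl58, 0.37 for Mrps31, 0.65 for Mrps7 and 1.58 for Mrps18a. Without that share in the model Mrps18a had a difference of -0.03 and did not pass (limma adjusted p = 0.9). The cause was not tested.

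A fit with the library number within an age as a replicate block called 52 members in CSN over all ages, 10 at 90 days and 1 at 30 days. For the difference between cell types a block was the libraries of the same genotype, age and number, and 15 members passed. The numbers were not shown to pair libraries, though the correlation within blocks was 0.27 in CSN and 0.05 in control cells. In the fit of both cell types it was 0.04. With 2 Sod1G86R CSN libraries at 105 days, leaving out 1 assumes that the other varies like the remaining groups.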
